A study of Mus musculus with 8 samples.

Results

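The genes described here are 46 chromatin regulators relevant to myeloid leukaemia: the Polycomb complexes, the histone demethylases, the MLL and menin partners, the DOT1L group, the enzymes of DNA methylation, the histone deacetylases and acetyltransferases, and the BAF remodelling complex. They were listed by name, at a time when earlier results of these data were known. A member was measured where a probe set of the array carries that gene symbol alone, and the probe set with the highest mean over the 8 arrays stood for it. By this rule 41 of the 46 members were measured, among 17097 genes in all, and 40 passed a filter on low signal, among 12250. Tet1, Hdac3, Ep300 and Smarca4 had no such probe set, Kdm6b had only 1 shared with another symbol, and Tet3 did not pass the filter.

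Signals came from 8 Affymetrix arrays of total RNA from mouse acute myeloid leukaemia (AML) cell lines, 4 titled Trib1 hi and 4 titled Trib1 null. The source of the Trib1 hi arrays is a line expressing Hoxa9 and Trib1, and that of the Trib1 null arrays a line expressing Hoxa9. Both are described as leukaemia cells that arose in mice homozygous for the Trib1 knock-out, so neither group has the endogenous gene, and both grew untreated with 5 ng/ml of the cytokine IL-3 and 10% serum. Hoxa9 is a homeobox protein that can transform myeloid progenitors, and Trib1 is a pseudokinase that leads the myeloid factor C/EBP alpha to the proteasome. The sources used here name no vectors, number of clones or age and sex of the mice. The labels do not say whether the 4 arrays per group stand for separate cultures, so the p-values measure the spread between these arrays, which may be technical. In RNA from whole cultures, fewer cells of a type and less RNA per cell cannot be told apart.

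Chromatin regulators set which genes a cell can use. Polycomb repressive complex 2 (PRC2) methylates histone H3 at silent genes and Polycomb repressive complex 1 (PRC1) ubiquitinates histone H2A there, while MLL-type complexes, built on a core of WDR5, RBBP5 and ASH2L, methylate another lysine of histone H3 at active genes. In myeloid leukaemia several of these genes recur as mutated genes (Tet2, Dnmt3a, Asxl1, Ezh2, Kdm6a, Phf6) and others as proteins that leukaemia cells need (menin, DOT1L, LSD1, the product of Kdm1a). Hoxa9 is itself a target of MLL complexes that contain menin.

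The promoters of 4 members are shown for the contrasts described below: the paralogues Ezh2 and Ezh1, called in opposite directions although the call of Ezh1 is weak, Bmi1, with a large increase, and Kdm6a, with a large decrease. Each run covers 250 bases before to 50 bases after the gene's start in RefSeq, build GRCm38.p6, 5′ to 3′ on the gene's strand. Capitals mark the E-box CACGTG, the site of MYC and related factors.
Ezh2 (chr6:47594981-47595280, minus strand): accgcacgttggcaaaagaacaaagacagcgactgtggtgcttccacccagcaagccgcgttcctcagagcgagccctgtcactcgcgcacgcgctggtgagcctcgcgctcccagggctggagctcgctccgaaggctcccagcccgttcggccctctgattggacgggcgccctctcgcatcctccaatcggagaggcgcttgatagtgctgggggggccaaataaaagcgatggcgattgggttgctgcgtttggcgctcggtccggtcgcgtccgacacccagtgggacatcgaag
Ezh1 (chr11:101226414-101226713, minus strand): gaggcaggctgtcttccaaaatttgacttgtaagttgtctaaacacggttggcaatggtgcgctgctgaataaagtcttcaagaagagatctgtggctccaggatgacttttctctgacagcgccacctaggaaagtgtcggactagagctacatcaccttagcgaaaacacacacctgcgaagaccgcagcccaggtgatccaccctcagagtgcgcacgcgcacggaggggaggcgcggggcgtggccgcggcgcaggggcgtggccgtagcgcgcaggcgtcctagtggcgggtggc
Bmi1 (chr2:18676768-18677067, plus strand): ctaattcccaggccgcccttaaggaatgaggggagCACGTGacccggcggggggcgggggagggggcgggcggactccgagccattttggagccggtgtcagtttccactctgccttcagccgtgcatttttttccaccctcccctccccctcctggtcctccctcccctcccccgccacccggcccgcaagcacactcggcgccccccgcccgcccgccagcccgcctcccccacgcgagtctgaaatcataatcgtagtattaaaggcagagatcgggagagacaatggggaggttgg
Kdm6a (chrX:18162325-18162624, plus strand): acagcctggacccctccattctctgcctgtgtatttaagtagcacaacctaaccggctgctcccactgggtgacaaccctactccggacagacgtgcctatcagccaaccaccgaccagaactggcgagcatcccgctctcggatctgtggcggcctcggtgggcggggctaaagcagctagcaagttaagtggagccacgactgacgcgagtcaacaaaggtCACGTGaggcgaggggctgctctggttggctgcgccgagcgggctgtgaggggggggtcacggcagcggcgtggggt
The E-box begins 215 bases before the start of Bmi1 and 27 bases before that of Kdm6a, so the same letters stand in a promoter of a gene that rose and in one of a gene that fell. Of the 46 members, 36 have a promoter in the RefSeq table, as do 10 of those that rose and all 6 that fell. The 5 motifs searched on both strands were the E-box, the E2F site TTCCCGC, the ETS site CCGGAAG, the C/EBP site TTGCNNAA and the Hox-Pbx site TGATTTAT, and no matches overlapped in the members' promoters. The E-box was found in 1 of the 10 promoters of members that rose and in 2 of the 6 of members that fell, Kdm6a and Bap1, against 7.24% of 27025 promoters, 1 per gene. The E-box was also in Cbx5, which was not called. The E2F site was found in Suz12 and Uhrf1 and in the uncalled Asxl1 and Smarcb1 (4.66% of all promoters), and the C/EBP site in Mllt10 and the uncalled Kat7 (10.8%). Neither the ETS site (9.12% of all promoters) nor the Hox-Pbx site (1.04%) was found in the 16 promoters of members that rose or fell, and of the 16 promoters of uncalled members 4 held the ETS site (Asxl1, Dot1l, Kat7 and Mllt1) and 0 the Hox-Pbx site. These matches describe letters in a window of 300 bases. The 32 tested members with a promoter had a median GC content of 65.3%, against 52.7% over all promoters.

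Before the members, the arrays themselves limit what can be read. All values are the authors' deposited intensities, and differences were fitted with limma on log2(intensity + 2.71) over all 12250 genes, p-values being Benjamini-Hochberg adjusted and called under 0.05. Signals under 500 varied with the background of each array: the control probe set GC25 read 379 on Trib1 hi 3, 11.4 to 15.1 on the other Trib1 hi arrays and 149 to 335 on the Trib1 null arrays. Folds are therefore ratios of geometric means after raising signals under 500 to 500, written "at least" where a group lay under 500 on some or all arrays. The array also carries probe sets for dap, a bacterial transcript used as an added control. All 6 of them read lower on the Trib1 hi arrays, 5 without overlap: the 4 that were over 500 on all arrays differed by -0.50 to -0.68 on the log2 scale, 1 with group means of 610 and 1073 by -0.84, and 1 with means of 329 and 701 by -1.26. For the added controls bioD and cre the groups overlapped and differences were at most 0.16. Controls at signals like those of dap overlapped too, and disagreed. The bioB probe sets differed by 0.21, 0.04 and 0.01 and those of bioC by -0.02 and 0.20. The probe sets named r2 differed by -2.40 to -2.54 for bioB, under 500 on all arrays, and by -0.34 and -0.33 for bioC. The shift of dap is therefore not that of all the added controls compared here. No other added controls were compared, and the step at which each is added was not considered. Below, dap is set beside the members that fell only, and its bearing on those that rose was not tested. Trib1 itself read 7.13, 7.13, 122 and 5.92 on the Trib1 hi arrays and 304, 223, 212 and 206 on the Trib1 null arrays, against its labels but all at or near background, and the sources used here do not place its probes relative to the deleted or introduced sequence. Hoxa9 read 14.3, 14.3, 391 and 10.03 on the Trib1 hi arrays, all under 500 although their source is a line said to express it, against 969, 1075, 1031 and 1020 (at least 2.05-fold lower, adjusted p = 5.15e-06). The groups are therefore named as the arrays labelled Trib1 hi and Trib1 null, and each direction below is that of the labels. The labelled cell type was checked with Ptprc, the pan-leucocyte marker CD45, which read 12539 ± 1998 and 13069 ± 1303 (SD, n = 4 here and throughout, Trib1 hi first). The T and B cell markers read 132 or less on every array and the erythroid markers 392 or less. Of the fibroblast and endothelial markers, Col1a1, Col1a2 and Col3a1 had means under 4 and Cdh5 had means of 10.6 and 3.15. Pecam1, of the same list, was over 500 on all 8 arrays, at 1610 ± 110 and 2231 ± 141. It was 1.39-fold lower without overlap (adjusted p = 0.000267).

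Markers of myeloid maturity moved with the groups. Of 8 myeloid genes, the arrays labelled Trib1 hi had 5 higher and 2 lower: the granule genes Mpo (5201 ± 755 and 2.92 ± 0.79, at least 10.3-fold) and Elane (5.58-fold) and the progenitor marker Cd34 (at least 6.81-fold) were higher, and Itgam, the maturity marker CD11b, was 3.08-fold lower. Cebpa (1.80-fold) and Kit (380 ± 208 and 77.3 ± 41.2) were also higher, and Spi1 was at least 1.61-fold lower. The summed signal of the list ran from 28685 to 38484 in the arrays labelled Trib1 hi and from 22157 to 25451 in those labelled Trib1 null. That sum pools Ptprc with genes that moved in opposite directions, so it is no measure of maturity. The part of maturity in the results below was not tested.

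Of the 40 tested members, 12 rose and 6 fell in the arrays labelled Trib1 hi, and 22 did not pass the test. Over all tested genes 11.1% were called higher and 19.7% lower, so 30% and 15% of the members stand beside those shares. Quantile normalization, which gave 50.1% of all calls as higher where the deposited scale gave 36.1%, called 21 members higher and 7 lower, beside 27.4% and 27.3% of all tested genes. The median log2 difference was 0.04 for the tested members and 0.04 for all genes. With a mean intensity over 500 it was 0.16 for 30 members and -0.03 for 5326 genes. The counts varied with signal: of the 14 members with a mean intensity over 2000, 10 rose and 1 fell, beside 29% and 22.6% of the 2611 genes that bright, while of the 17 members with a mean of 1000 or less, 0 rose in limma's test (0 at an unadjusted p under 0.05) and 3 fell. Among all genes few that dim were higher: 0.0716% with a mean up to 50, 2.64% from 50 to 500 and 12.5% from 500 to 1000, so the count of 0 is no result about the members. Of the 40 tested members, 11 (27.5%) read wholly above and 4 (10%) wholly below the arrays labelled Trib1 null, beside 13.5% and 15.8% of all tested genes.

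**Figure D1:**
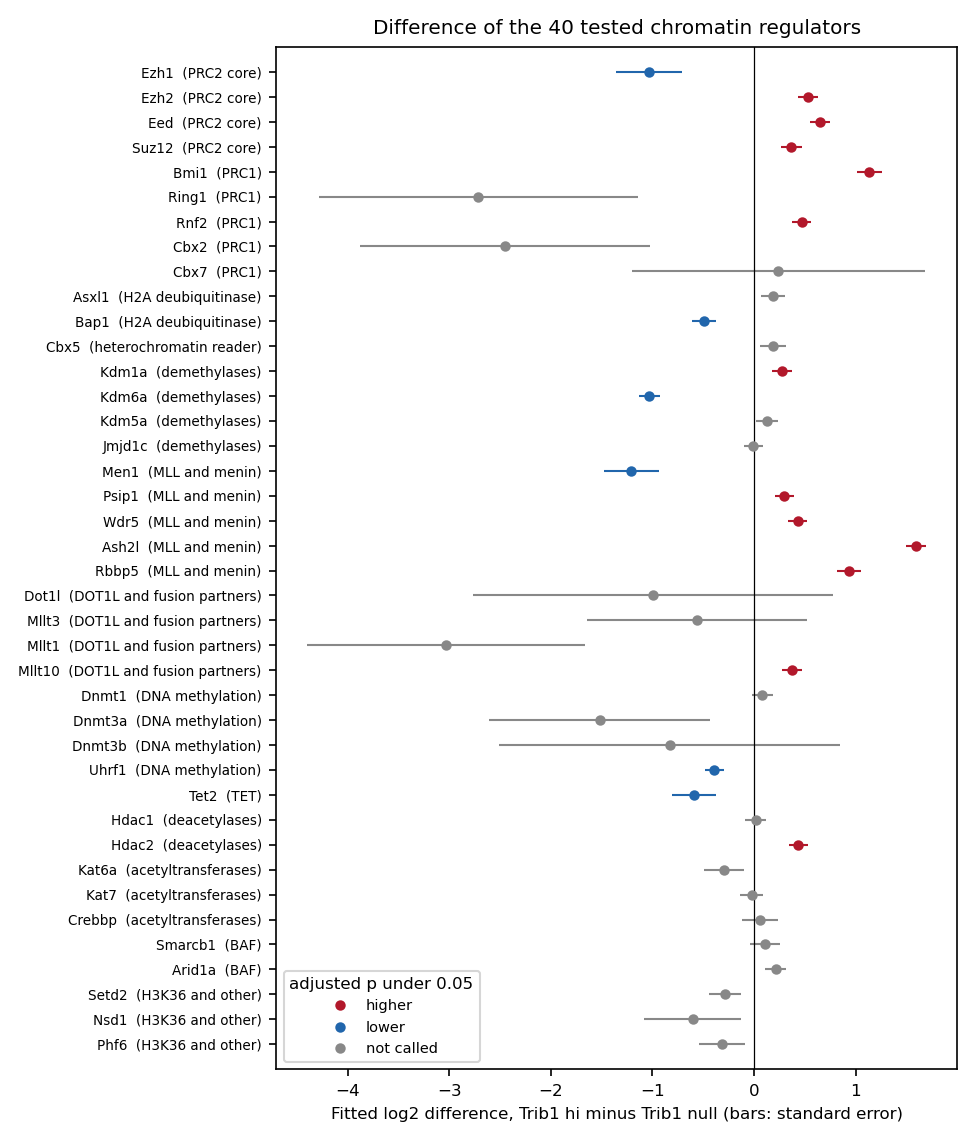
Fitted log2 difference (Trib1 hi minus Trib1 null, horizontal axis) of each of the 40 tested members, in order of role, with its standard error; red points were called higher, blue lower and grey neither. The members that rose lie between 0.28 and 1.59, and the longest bars belong to members under 500 on all arrays.

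**Figure D2:**
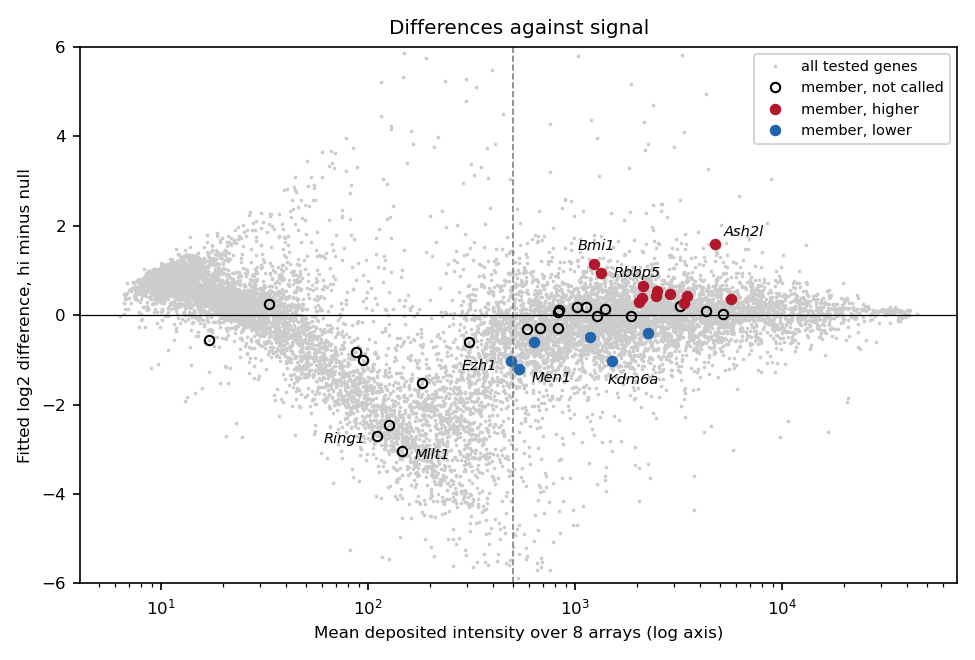
Fitted log2 difference (vertical axis) against mean deposited intensity over the 8 arrays (horizontal log axis) for all tested genes (grey) and members (circles); the dashed line marks 500, and 46 genes lie beyond the plotted range of 6. Genes with a mean between 50 and 500 sit below 0 as a body (median -1.67), and the dim members Ring1 and Mllt1 lie inside that cloud.

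The MLL-type core held the largest increase of any member. ASH2L, with RBBP5, stimulates the methyltransferase of these complexes. Ash2l read 7802, 7850, 5602 and 7288 on the Trib1 hi arrays as labelled, against 2281, 2331, 2415 and 2340 on the Trib1 null ones. The groups lay far apart, and Trib1 hi 3, the lowest of its group, still read above all Trib1 null arrays. Ash2l rose 3.02-fold (log2 difference 1.59, SE 0.10, adjusted p = 2.08e-14). Rbbp5 read 1731, 1625, 1776 and 1839 against 851, 856, 1100 and 844, again without overlap, with Trib1 null 3 above the other arrays of its group. It rose 1.92-fold (log2 difference 0.94, SE 0.12, adjusted p = 8.02e-08). Ash2l and Rbbp5 kept their calls under all 18 processing alternatives.

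WDR5, the subunit that holds the core to the methyltransferase, changed less, and its probe sets disagreed. Wdr5 read 2973, 3005, 2419 and 2963 against 2088, 2060, 2112 and 2143 on the brighter probe set. The groups did not overlap (1.35-fold higher, adjusted p = 0.000527). Its other probe set, also over 500 on all arrays, had means of 854 ± 174 and 1074 ± 94, overlapping and in the opposite direction, and the call ended when the probe sets were averaged (adjusted p = 0.849). Psip1, which encodes the chromatin tether LEDGF of menin and MLL, read 2307, 2296, 2050 and 2302 against 1720, 1856, 1851 and 1850. All arrays labelled Trib1 hi were above all those labelled Trib1 null, by 1.23-fold (adjusted p = 0.0142), but the call ended without Trib1 null 1 (adjusted p = 0.0622), without a variance trend (0.0761) and with averaged probe sets (0.707).

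Men1, which encodes menin, the adaptor that brings MLL to chromatin, was lower, in the range where arrays differ. It read 229, 196, 579 and 365 on the Trib1 hi arrays as labelled, against 746, 650, 773 and 736 on the Trib1 null ones. No array overlapped, and the nearest to the other group was again Trib1 hi 3. The fold was at least 1.40 (log2 difference -1.21, SE 0.27, adjusted p = 0.000636), and the call ended without a variance trend (0.0506) and with averaged probe sets (0.557). The dap control at group means of 329 and 701 differed by -1.26, as much as Men1 at 342 and 727, and whether the decrease of Men1 is other than that of the control was not tested. Of the MLL and menin group, 4 of 5 members rose and 1 fell, beside 24.2% and 31.1% of all genes with a mean over 500, and the calls of Wdr5, Psip1 and Men1 each ended under at least 1 alternative.

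Of the 4 core genes of PRC2, Eed, Ezh2 and Suz12 rose and Ezh1 was called lower at a low signal, beside 11.1% of all tested genes higher and 19.7% lower. At like signal the shares were larger. With a mean over 2000, as for the 3 that rose, 29% of genes were higher. With a mean from 50 to 500, as for Ezh1, 27.5% were lower. EZH2 is the methyltransferase of dividing cells, EED and SUZ12 are its obligate partners, and EZH1 is the paralogue that prevails in resting cells. Eed read 2661, 2780, 2312 and 2625 against 1750, 1575, 1622 and 1655. The groups were clearly apart, by 1.57-fold (log2 difference 0.65, SE 0.10, adjusted p = 1.71e-06). Ezh2 read 3125, 3008, 2488 and 3164 against 1779, 2093, 2132 and 2131. Here too the lowest Trib1 hi array, Trib1 hi 3, was above the highest Trib1 null array, and the rise was 1.45-fold (log2 difference 0.53, SE 0.10, adjusted p = 6.39e-05).

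Suz12 rose least of the 3, and its bright probe sets moved together. It read 7013, 7123, 5287 and 6093 against 4630, 5127, 4835 and 5037. The gap between the groups was narrow, since Trib1 hi 3 lay close to Trib1 null 2, and the rise was 1.29-fold (adjusted p = 0.00488, 0.0972 without a variance trend). Both other probe sets of Suz12 over 500 on all arrays were also higher without overlap, by 1.45-fold and 1.31-fold. A mean over all 6 probe sets, 3 of them at background, took the difference to -0.17 (adjusted p = 0.905).

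Ezh1 went the other way at a low signal. It read 296, 119, 555 and 436 on the Trib1 hi arrays as labelled, against 729, 707, 606 and 486 on the Trib1 null ones. Both groups fell under 500 on some arrays and they overlapped, as Trib1 hi 3 read above Trib1 null 4, so no fold is given. The fitted difference was -1.03 (SE 0.33, adjusted p = 0.0143), and it missed the threshold without Trib1 hi 2 (0.0931), with a floor of 500 (0.0542), after quantile normalization (0.0957), without a filter (0.0938), without a variance trend (0.190) and with averaged probe sets (0.939). The dap control at like signal differed by -1.26. The opposite calls of Ezh2 and Ezh1 therefore rest on unequal evidence: that of Ezh2 held under all 18 alternatives. Proliferation markers were measured because Ezh2 is known to be expressed in cycling cells: of 7 tested, 2 rose (Mcm2 1.78-fold and Rrm2 1.26-fold) and 1 fell (Mcm5 1.44-fold), Mki67 read 7056 ± 994 and 7493 ± 432, and the summed signal of the list ran from 46706 to 66167 in the arrays labelled Trib1 hi and from 48623 to 57249 in the others. Their part in the result was not tested.

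PRC1 divided by signal. BMI1 is the Polycomb ring finger protein that sustains blood stem cells and leukaemia stem cells, and RNF2 (RING1B) and RING1 are the ubiquitin ligases it activates. Bmi1 read 1527, 1779, 1636 and 1822 against 896, 679, 707 and 802. Each array labelled Trib1 hi was well above each one labelled Trib1 null, by 2.20-fold (log2 difference 1.14, SE 0.12, adjusted p = 5.54e-09). Its second probe set read 879 ± 156 and 356 ± 108 and was at least 1.72-fold higher without overlap. Rnf2 read 3497, 3452, 2894 and 3490 against 2296, 2449, 2452 and 2392. It rose 1.39-fold without overlap (adjusted p = 0.000125), and its second probe set was 1.41-fold higher, also without overlap.

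The other PRC1 members lay at background. Ring1 read 7.68, 7.24, 244 and 7.23 against 251, 97.3, 160 and 111, Cbx2, a chromobox subunit, had means of 81.0 ± 139 and 172 ± 74.7, and Cbx7, another, 45.0 ± 77.0 and 21.7 ± 28.5. None of these 3 reached 500 on any array, and none passed the test (adjusted p = 0.225, 0.230 and 0.939). Without Trib1 hi 3, whose background was raised, Ring1 and Cbx2 were called lower (adjusted p = 0.00105 and 0.00169), as Ring1 was after quantile normalization (0.00161). Ring1 is on chromosome 17, whose genes are taken up below. Cbx5, the heterochromatin protein HP1 alpha, was bright but overlapped, at 1094 ± 89.2 and 958 ± 40.5 (adjusted p = 0.314, 0.000163 and higher after quantile normalization).

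BAP1 removes the ubiquitin that PRC1 places, and ASXL1 is its cofactor. Bap1 read 1046, 1022, 1004 and 839 on the Trib1 hi arrays as labelled, against 1499, 1286, 1375 and 1345 on the Trib1 null ones. The groups did not overlap, and Bap1 fell 1.41-fold (log2 difference -0.49, SE 0.12, adjusted p = 0.00135), a call kept under all 18 alternatives. The dap control at signals over 500 on all arrays differed by -0.50 to -0.68, as much as Bap1 or more. Asxl1 read 1204 ± 111 and 1052 ± 45.3 and did not pass (adjusted p = 0.278, 9.57e-05 and higher after quantile normalization). Its other, dimmer probe set went the opposite way with overlap, at 260 ± 240 and 581 ± 68.9 (at least 1.12-fold lower).

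**Figure D3:**
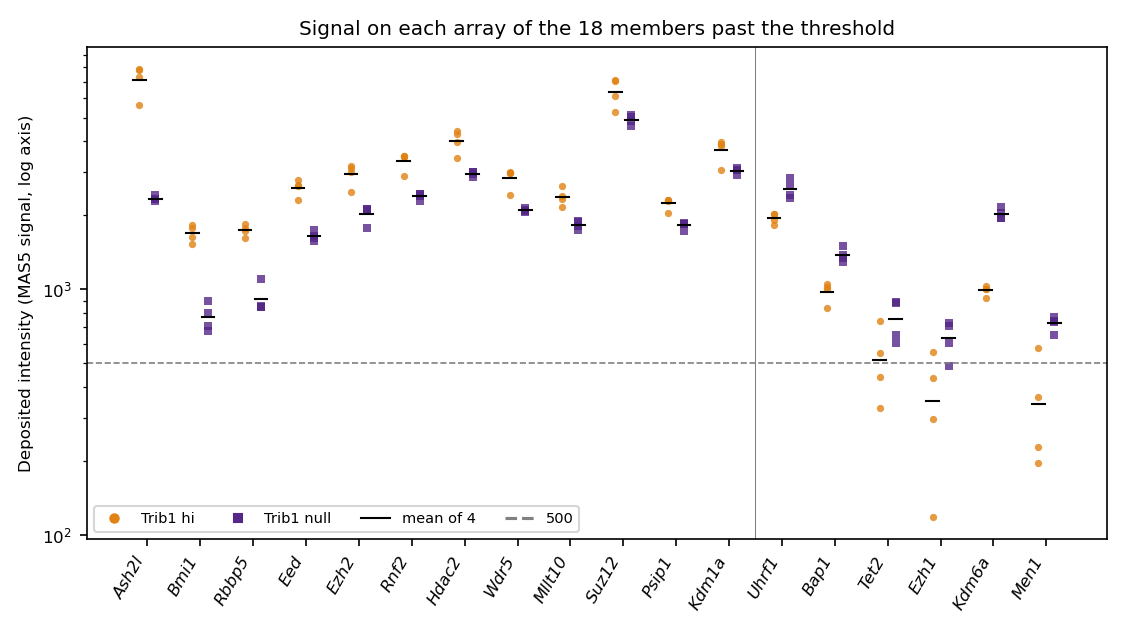
Deposited intensity (vertical log axis) on each array of the 18 members past the threshold, ordered by fitted difference, with circles for Trib1 hi, squares for Trib1 null and a bar at each mean of 4. For 15 of the 18 the groups do not overlap; Kdm1a, Tet2 and Ezh1 are the exceptions, and Tet2, Ezh1 and Men1 reach below the dashed line at 500.

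Among the demethylases, Kdm6a fell by about as much as Bmi1 rose. KDM6A (UTX) removes the methyl mark that PRC2 places, works within MLL-type complexes and is lost in some leukaemias. It read 921, 1035, 1006 and 1004 on the Trib1 hi arrays as labelled, against 1960, 2051, 1946 and 2163 on the Trib1 null ones. The arrays of each group lay close together and the groups far apart, including Trib1 hi 3. The decrease was 2.05-fold (log2 difference -1.03, SE 0.11, adjusted p = 1.44e-09). A second bright probe set read 666 ± 176 and 1565 ± 43.5, 2.40-fold lower without overlap, and only averaging with another at background (means under 15) ended the call (adjusted p = 0.417). The dap control at signals over 500 on all arrays differed by less, -0.50 to -0.68.

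Kdm6a is on the X chromosome, where it is known to escape X inactivation in mice. Xist, the RNA that coats the inactive X, read 29.7 ± 48.0 and 8907 ± 684. Kdm5c, another gene known to escape, was lower under 500 (140 ± 205 and 452 ± 25.4, adjusted p = 0.00538), whereas Ddx3x, at 17783 ± 2944 and 14395 ± 868, and Eif2s3x, at 6698 ± 1055 and 7103 ± 356, which escape too, did not pass the test (adjusted p = 0.130 and 0.592). The Y-linked genes Uty, Kdm5d and Eif2s3y had means of 13.5 or less in both groups. Of the 164 tested X-linked genes with a mean over 500, 35.4% were called lower and 14.6% higher, beside 31.1% and 24.2% of all genes that bright. Among the 20 nearest such genes along the X chromosome, 6 were lower and 2 higher, among the former Med14 and Rp2. A difference between the lines in their X chromosomes cannot be told apart from the label here. Phf6, a PHD finger gene also on the X chromosome, read 534 ± 199 and 637 ± 82.8 and did not pass (adjusted p = 0.366, 0.0471 and lower without Trib1 hi 3).

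Of the other 3 demethylases, Kdm1a passed the test. Kdm1a, which encodes the demethylase LSD1, read 3917, 3978, 3057 and 3841 against 2908, 3115, 3053 and 3070. Trib1 hi 3 fell among the Trib1 null arrays, so the groups overlapped, and the 1.21-fold rise (adjusted p = 0.0250) ended in 8 of 18 alternatives, among them without Trib1 hi 1, 2 or 4 (0.0784 to 0.0896) and without Trib1 null 1 or 3 (0.0717 and 0.0555). Its second probe set read 929 ± 151 and 860 ± 34.6. Kdm5a, which acts on the mark of active promoters, read 1465 ± 108 and 1338 ± 73.2, and Jmjd1c, a partner of AML1-ETO in leukaemia, 1864 ± 83.4 and 1873 ± 90. Neither passed (adjusted p = 0.449 and 0.973) on the deposited scale, and Kdm5a was called higher after quantile normalization (0.00514).

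**Figure D4:**
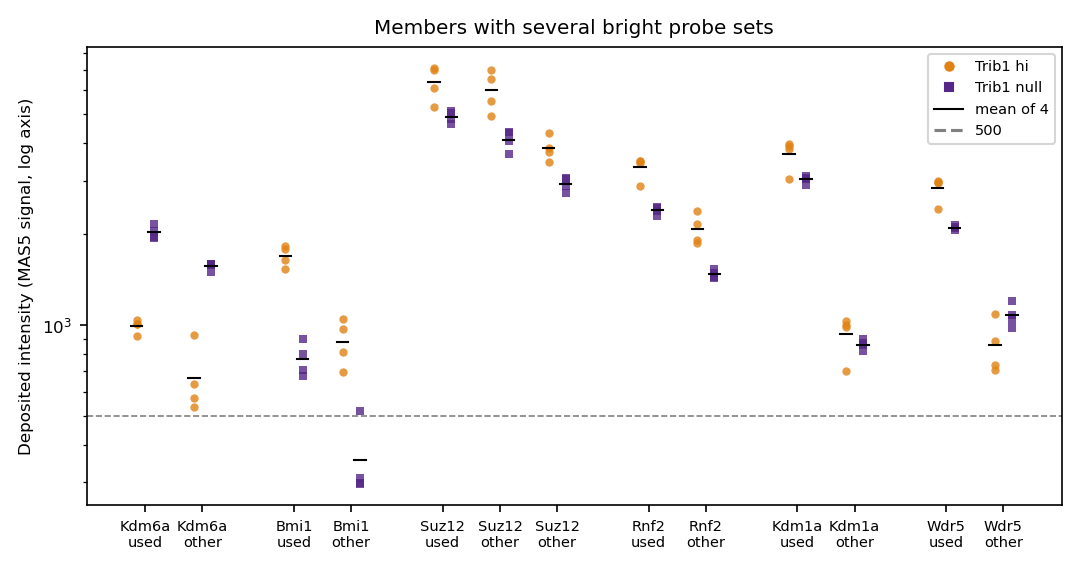
Deposited intensity (vertical log axis) of the probe sets over 500 on all Trib1 hi arrays, for 6 members with more than 1 such probe set, with circles for Trib1 hi, squares for Trib1 null and a bar at each mean of 4. The probe sets of Kdm6a, Bmi1, Suz12 and Rnf2 differ in the same direction without overlap, those of Kdm1a are both higher with overlap, and those of Wdr5 differ in opposite directions.

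In the DOT1L group only Mllt10 reached a signal of 500. DOT1L methylates histone H3 along transcribed genes, and Mllt10 (AF10), Mllt3 (AF9) and Mllt1 (ENL) encode its partners and MLL fusion partners. Mllt10 read 2641, 2408, 2155 and 2328 against 1739, 1812, 1880 and 1898. It rose 1.30-fold without overlap (log2 difference 0.38, SE 0.10, adjusted p = 0.00237), and averaging with a probe set at background ended the call (0.722). Dot1l (96.4 ± 171 and 93.5 ± 78.1), Mllt3 (12.2 ± 17.1 and 21.8 ± 31.5) and Mllt1 (72.2 ± 125 and 220 ± 64.2) stayed under 500 on all arrays and did not pass. After quantile normalization Dot1l turned and was called higher (adjusted p = 0.0169), and Mllt3 (1.03e-05) and Mllt1 (0.0113) were called lower. Mllt1, on chromosome 17, was called lower without Trib1 hi 3 (adjusted p = 0.000418).

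Of the enzymes of DNA methylation, Uhrf1 alone passed. UHRF1 brings the maintenance methyltransferase DNMT1 to newly copied DNA. Uhrf1 read 2027, 1821, 1915 and 2030 on the Trib1 hi arrays as labelled, against 2424, 2636, 2351 and 2834 on the Trib1 null ones. The groups did not overlap, and Uhrf1 fell 1.31-fold (log2 difference -0.39, SE 0.10, adjusted p = 0.00147), a call kept under all 18 alternatives. The dap control at signals over 500 differed by -0.50 to -0.68. Its partner Dnmt1 read 4807, 4844, 3401 and 4728 against 3848, 4506, 4100 and 4181. The arrays overlapped because Trib1 hi 3 was the lowest of all, and Dnmt1 did not pass (adjusted p = 0.643, 0.0141 and higher without Trib1 hi 3). Of the de novo methyltransferases, Dnmt3a (160 ± 206 and 204 ± 85.8) and Dnmt3b (93.4 ± 157 and 80.7 ± 56.8) stayed under 500 on all arrays and did not pass. After quantile normalization both turned and were called higher (adjusted p = 0.0321 and 0.000188).

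Uhrf1 lies on chromosome 17, with Ring1 and Mllt1. Of the 300 tested genes of that chromosome with a mean over 500, 73% were called lower and 5.67% higher, with a median log2 difference of -0.60. Of the 20 nearest such genes, 17 were lower and 1 higher (Lonp1), with a median of -0.66, so the decrease of Uhrf1 was smaller than that of most of its neighbours. What sets chromosome 17 apart was not tested and cannot be told apart from the label. Ash2l is on chromosome 8, where 44.6% of 289 such genes were lower and 12.5% higher, and among its 20 neighbours 6 were lower and 3 higher. None of those neighbours differed by as much upwards (the highest was Eif4ebp1 at 1.20), and Lsm1 and Hgsnat, on either side of it, had differences of 0.18 and -0.50. Kat6a, a neighbour of Ash2l and itself a member, read 618 ± 173 and 740 ± 96.2 (adjusted p = 0.308).

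**Figure D5:**
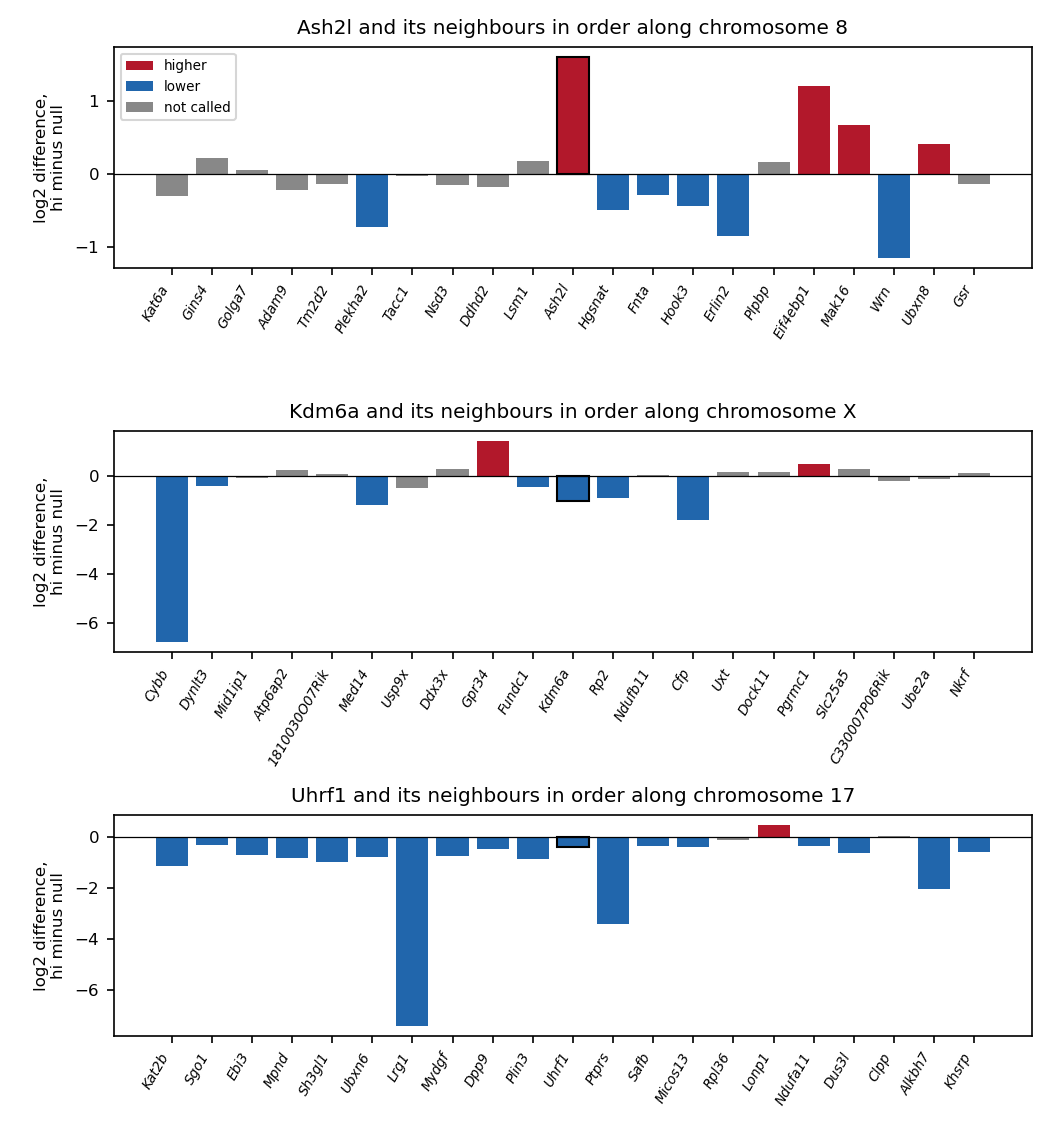
Fitted log2 difference (vertical axis) of Ash2l, Kdm6a and Uhrf1 (outlined) and of the 10 nearest tested genes with a mean over 500 on each side, in gene order along the chromosome; red was called higher, blue lower, grey neither. Neighbours of Uhrf1 were lower in 17 of 20 cases, whereas Ash2l rose among neighbours with a median of -0.15.

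Tet2, which oxidises methylated cytosine and is often mutated in myeloid disease, was lower at the edge of the measurable range. It read 439, 329, 741 and 552 against 888, 650, 603 and 881. The groups overlapped, as Trib1 hi 3 read above Trib1 null 2 and 3. The decrease, at least 1.32-fold, passed narrowly (log2 difference -0.59, SE 0.22, adjusted p = 0.0370), ended in 9 of 18 alternatives, among them without Trib1 hi 1 (0.115), Trib1 hi 2 (0.191), Trib1 null 1 (0.106) or Trib1 null 4 (0.109), and was smaller than the -0.84 of the dap control at group means of 610 and 1073. Tet3 read 66.1 on Trib1 hi 3 and 3.95 or less on the other arrays.

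Of the class I deacetylases measured, Hdac2 rose and Hdac1 did not pass the test. HDAC1 and HDAC2 are paralogues that share the same corepressor complexes. Hdac2 read 3969, 4419, 3406 and 4266 against 2871, 3003, 2933 and 3008. It rose 1.35-fold without overlap (log2 difference 0.44, SE 0.09, adjusted p = 0.000411), a call that ended when averaged with a probe set at background (0.686). Hdac1 read 6161, 5386, 4054 and 5391 against 4853, 5393, 5282 and 5024. These values overlapped throughout, with Trib1 hi 1 the highest and Trib1 hi 3 the lowest, and the difference was 0.02 (SE 0.11, adjusted p = 0.946). Whether Hdac1 and Hdac2 differed from each other in response was not tested.

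None of the acetyltransferase members, the BAF members or Setd2, Nsd1 and Phf6 passed limma's test (0 of 8, beside 30.8% of all tested genes called in either direction), and 1, Arid1a, had an unadjusted p under 0.05. Kat7 (HBO1) read 1272 ± 116 and 1289 ± 62 and Crebbp, the coactivator CBP, 856 ± 261 and 791 ± 61 (adjusted p = 0.929 and 0.873). Smarcb1 read 865 ± 123 and 798 ± 37.2 (adjusted p = 0.677, called higher after quantile normalization) and Arid1a 3462 ± 443 and 2977 ± 246 (adjusted p = 0.115). Arid1a was called higher without Trib1 hi 3 (0.00778), after quantile normalization (0.00905) and with a pseudocount of 50 (0.0380). Setd2, which methylates histone H3 in gene bodies, read 749 ± 109 and 912 ± 118 (adjusted p = 0.183), and Nsd1 283 ± 230 and 333 ± 38.5 (adjusted p = 0.422), which turned and was called higher after quantile normalization (0.000454). At their standard errors of 0.10 to 0.48 on the log2 scale, small differences were not detectable for these genes.

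A wider set of 120 chromatin genes, listed by complex, puts the members in context. Of the 98 that were tested, 16 rose and 28 fell, 16.3% and 28.6%, with a median log2 difference of -0.10. Over all tested genes the shares were 11.1% higher and 19.7% lower, and each list below stands beside them. In lists this short, a count near those shares is no result about a complex. Elongation and BET genes had 5 of 13 higher, led by Ctr9, a PAF complex subunit (1.37-fold), and Aff1, a scaffold of the super elongation complex and MLL partner (1.37-fold), and 3 lower, among them Mllt6 (at least 1.64-fold). Of 13 further BAF genes 4 rose, among them the PBAF subunit Phf10 (1.66-fold, on chromosome 17) and the BAF core subunit Smarcc1 (1.51-fold), and 4 fell, among them Brd9 (at least 1.70-fold) and the ATPase gene Smarca2 (1.38-fold).

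Of 15 further genes listed under PRC1, 7 were called lower and 2 higher, beside 19.7% and 11.1% of all tested genes. Among those lower, Phc1, Phc3, Scmh1, L3mbtl2 and Asxl2 had means from 50 to 500, where 27.5% of all tested genes were lower. Asxl2 is a relative of Asxl1, which is placed above with BAP1 and not with PRC1. The ring finger gene Pcgf5 read 3297 ± 517 and 1731 ± 100.1 (1.89-fold higher, adjusted p = 1.34e-08) and its relative Pcgf6 was at least 1.58-fold higher, while Pcgf1, at background, did not pass (adjusted p = 0.977) and Pcgf2 did not pass the filter. Cbx6 fell 2.01-fold, from 1374 ± 58.7 to 704 ± 198, and Phc1 and Phc3, Polyhomeotic genes, were lower at 71.1 ± 117 against 460 ± 41.6 and 162 ± 195 against 579 ± 81.1, in the range where arrays differ. Of the 6 accessory genes of PRC2 tested, 0 passed limma's test and 0 had an unadjusted p under 0.05. Of 8 COMPASS and MLL genes 0 rose (0 at an unadjusted p under 0.05) and 2 fell, Dpy30, the remaining subunit of the MLL-type core, on chromosome 17 (1.27-fold), and Cxxc1 (at least 1.35-fold).

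Corepressor genes had 0 of 15 higher (1 at an unadjusted p under 0.05) and 4 lower, beside 11.1% and 19.7% of all tested genes. Among those lower were Sin3b, a SIN3 scaffold, which fell 1.98-fold (2209 ± 154 and 4366 ± 70.6, adjusted p = 1.21e-10), and Hdac7 (at least 1.28-fold). Of 7 heterochromatin genes Cbx1 rose 1.64-fold while 2 fell, among them the methyltransferase gene Ehmt2 on chromosome 17 (1.69-fold). Of 8 further acetyltransferase genes 2 fell, Kat2b, on chromosome 17 (2.21-fold), and Ing4 (at least 1.63-fold), and Ing5 rose at least 1.41-fold. Demethylase genes had 3 of 6 lower, among them Phf8, on the X chromosome (at least 1.28-fold), and 0 higher (0 at an unadjusted p under 0.05). In the last list, of 7 genes, the arginine methyltransferases Prmt1 (1.92-fold) and Prmt5 (1.76-fold) rose with Idh2, while Idh1, the cytosolic isocitrate dehydrogenase, fell 2.34-fold from 10709 ± 667 to 4604 ± 566 (adjusted p = 3.28e-11).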

How the data were processed

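Total RNA of 8 samples was measured on 1-colour Affymetrix arrays, 4 per group, with groups and replicate numbers from the sample titles. The authors deposited 1 linear intensity per probe set and array (45141 probe sets, 104 of them controls), made with MAS5 per the submitters' processing notes; the sources used here give no version, parameters or detection calls. Symbols came from the platform annotation: 28898 probe sets had 1 symbol and 551 several. Chromosomes and gene order came from RefSeq's GRCm38.p6 table, matched by Entrez identifier.

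The intensities were taken as log2(intensity + 2.71), the pseudocount being the 25th percentile of all values. A pseudocount reduces differences at low signal, but with 1 this small they remained large where arrays differ in background. Genes with a mean from 50 to 500 had a median of -1.67. A pseudocount of 50 took the difference of Mllt1 from -3.03 to -1.55. The filter kept genes whose mean on that scale exceeded 3.01 (40th percentile of probe sets). limma 3.58.1 in R 4.3.3 (lmFit, eBayes with a mean-variance trend, two-sided) was fitted on all 12250 genes, and every adjusted p in the text is Benjamini-Hochberg adjusted over them. The fit was tried on simulated data with independent noise for each gene and changes set only in genes with a mean over 500. That simulation held no differences in background between arrays, so it does not bear on their effect at low signal. The number of arrays limits the precision. Same-numbered arrays did not consistently deviate together (correlations -0.51 to 0.49). The labels state no pairing, and none was assumed.

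The members, the other lists and the limit of 500 were chosen with earlier results of these data known. Per-array values are given for members past the threshold and for members of a role that moved apart. From each of the 10 other lists, up to 2 genes per direction with the largest fitted change past the threshold and without overlap were named, with Cbx6, Cxxc1 and Idh2 added after their values were seen. Neighbours on chromosomes 8, 17 and X were examined after the values were seen. Alternatives were 2 pseudocounts (1 and 50), 2 filters, quantile normalization, scaling to the 90th percentile, a floor of 500, averaged probe sets, no variance trend, a replicate block, and leaving out each array.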

Additional observations from a re-analysis of the deposited data

Results flagged for a closer look

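Of 82 groups of 4 arrays (41 members, 2 groups each), 20 held an array far from the other 3 of its group by Dixon's criterion, which chance alone meets in about 1 in 20 groups. In 13 of the 20 the far array was Trib1 hi 3. In 8 of those it was the highest of its group, in dim genes: Ring1 read 244, Cbx2 290 (289.5), Cbx7 161, Dot1l 353, Mllt3 37.9, Mllt1 259.7, Dnmt3b 329 and Tet3 66.1, while the other Trib1 hi arrays read 17.8 or less. In the other 5 it was the lowest, in bright genes: Rnf2 read 2894, Kdm1a 3057, Psip1 2050.4, Wdr5 2419 and Dnmt1 3400.7.

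Trib1 null 1 was the far array for Ezh2 (1779, the lowest), Psip1 (1720.03, the lowest), Cbx7 (64.3, the highest), Mllt3 (69.1, the highest) and Smarcb1 (853, the highest). Trib1 null 3 read highest for Rbbp5 (1099.8), and Trib1 hi 2 highest for Jmjd1c (1989). The background control GC25 was highest in its group on Trib1 hi 3 (379) and on Trib1 null 1 (335), the arrays that were far most often. Its part in these values was not tested.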

How the results depend on the processing

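Of the 18 members that passed, 8 kept direction and call under all 18 alternatives (Ezh2, Eed, Bmi1, Rnf2, Bap1, Ash2l, Rbbp5 and Uhrf1) and 10 lost the call under at least 1. Of the 22 that did not pass, 7 passed under none and 15 under at least 1. Quantile normalization called 21 members, 3354 of all tested genes and 32 other chromatin genes higher, and gave Dot1l 1.01, Dnmt3a 0.62, Dnmt3b 1.20 and Nsd1 1.02 on the log2 scale, turning their sign and calling all 4 higher. Averaging probe sets, which brings in sets at background, called 6 members higher and 3 lower, 725 and 1317 of all genes, and 6 and 10 other chromatin genes, and took Suz12 to -0.17. Without a variance trend 3 members, 1274 of all genes and 10 other chromatin genes were lower. With only genes of mean intensity over 500, 17 other chromatin genes were lower, from fewer genes tested.

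Leaving out each array in turn gave 10 to 14 members higher and 4 to 10 lower, 1155 to 2080 of all genes higher and 1962 to 3774 lower, and 14 to 25 other chromatin genes higher and 18 to 39 lower. The upper end of each of these ranges for all genes, and 14 and 10 for the members, came without Trib1 hi 3, which also took the median of all genes to -0.33. With the replicate number as a replicate block, 12 members were higher and 6 lower, the same 18 genes, with 1284 and 2346 of all genes. The same-numbered arrays correlated at -0.51, 0.49, -0.29 and 0.37. With so few arrays, and a raised background on Trib1 hi 3, these values cannot settle whether they were paired. Signal over background limits the 9 members under 500 on all arrays, for which these arrays show neither a level nor a fold.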
